A study of Mus musculus with 27 samples.

Results

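These are the promoters of genes listed at no expression at any stage of reprogramming. They were selected on measured values: a gene is a member when it is autosomal, is listed at an FPKM (fragments scaled to transcript length and to the mapped fragments of the library) of 0 in all 6 RNA-seq columns, and has no symbol beginning with Olfr or Vmn. The rule found 1670 promoters among the 20156 of the expression tables, and the promoter is the 2000 bp centred on the transcription start site (TSS). Genes just outside the rule are Tcp10c, Dynlt1f and Ren2, with highest FPKM values of 2.68e-06, 2.89e-06 and 9.49e-06, so the boundary lies between an exact 0 and a trace. Below, silent means listed at 0, a value that chose the members and is not a result. The files give no RNA read counts, and 7 histone genes, some of them near-identical copies from a family that dividing cells use, are listed at 0 too, so a 0 is not proof that no transcript was made. They are compared below with the 16208 other autosomal promoters outside the Olfr and Vmn families.

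The chromatin data are 21 MNase ChIP-seq libraries of mouse embryonic fibroblasts (MEFs), pre-iPSCs and iPSCs, with 2 libraries per cell type for H3, H3K4me3 and H3K27me3 and 1 for H3K9me3. The MEFs came from E13.5 embryos on a CBA/CaJ and C57BL/6J background, hemizygous for an Oct4-GFP transgene and a Rosa26 allele, and the methods give 129Sv/Jae mothers. Pre-iPSCs, an intermediate stage, and iPSCs were made from such MEFs with retroviruses carrying the Yamanaka factors, come from a pair of stable clones, and were grown for 6 passages with LIF on a layer of feeder MEFs. Which clone gave which library is not stated, so the spread between the libraries of a cell type may be partly technical. MEF chromatin was digested with another amount of MNase and for another time, so that the digestion and the cell type cannot be told apart in a comparison with MEFs.

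A gene can be silent over very different chromatin. In CpG-rich promoters, unmethylated CpG recruits the enzymes that place H3K4me3, the mark of start sites, and Polycomb complexes can add H3K27me3, so that developmental regulators in stem cells often carry both marks while silent. CpG-poor promoters of tissue-specific genes usually lack both, and H3K9me3 marks heterochromatin, repeats and some gene clusters.

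Silent promoters were mostly poor in CpG. Of the 1670, 270 (16.2%) were high-CpG (HCG) and 1400 low-CpG (LCG), whereas 79.6% of the other promoters were HCG. A promoter was called HCG when a 200-bp window within 500 bp of the TSS had at least 50% GC and an observed over expected CpG ratio of at least 0.6. The share depends on that rule: with a 500-bp window, at least 55% GC and a ratio of at least 0.75, HCG made up 53 members (3.17%) and 59.8% of the other promoters. The 200 bp before the TSS held a median of 6 CpG in HCG members and 1 in LCG members. The other promoters held 12, with 15 in the other HCG and 2 in the other LCG promoters. HCG members were thus poorer in CpG than the other HCG promoters. Comparisons within the HCG class below are therefore not matched for CpG content. The letters TATAAA were searched on either strand in the 50 bp before the TSS, with no other motif searched. They stood in 13.2% of the members, 3.04% of the other promoters and 4.03% of all promoters. Within the members the share was 15.2% for LCG and 2.96% for HCG promoters. As a comparison within the same class, 7.83% of the other LCG promoters and 1.81% of the other HCG promoters held these letters.

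The 5 sequences below are the 200 bp before the TSS of members on which the results turn, from the NCBIM37 (mm9) genome, 5′ to 3′ on the strand of the gene, with CpG in capitals. Nr2e1 (chr10:42303395-42303594, minus strand), Hs3st2 (chr7:128535610-128535809, plus strand) and Chrm2 (chr6:36337884-36338083, plus strand) are HCG and carried H3K4me3. Lrg1 (chr17:56261370-56261569, minus strand) and Trpm8 (chr1:90203087-90203286, plus strand) are LCG and carried H3K27me3, Trpm8 together with H3K4me3.
Nr2e1: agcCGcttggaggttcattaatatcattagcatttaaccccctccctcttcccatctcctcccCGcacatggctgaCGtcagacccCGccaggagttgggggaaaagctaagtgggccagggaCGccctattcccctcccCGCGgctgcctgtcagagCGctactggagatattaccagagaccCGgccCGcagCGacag
Hs3st2: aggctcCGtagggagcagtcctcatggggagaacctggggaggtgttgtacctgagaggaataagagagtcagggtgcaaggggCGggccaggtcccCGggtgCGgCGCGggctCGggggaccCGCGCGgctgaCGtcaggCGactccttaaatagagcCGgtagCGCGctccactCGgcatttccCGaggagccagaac
Chrm2: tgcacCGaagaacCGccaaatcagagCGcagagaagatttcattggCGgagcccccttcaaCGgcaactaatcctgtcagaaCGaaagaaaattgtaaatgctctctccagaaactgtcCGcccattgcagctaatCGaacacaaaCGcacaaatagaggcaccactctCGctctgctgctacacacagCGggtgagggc
Lrg1: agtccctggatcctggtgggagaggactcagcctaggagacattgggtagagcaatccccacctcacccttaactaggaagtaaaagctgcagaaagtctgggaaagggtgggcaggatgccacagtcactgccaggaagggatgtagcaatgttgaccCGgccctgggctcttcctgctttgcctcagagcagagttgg
Trpm8: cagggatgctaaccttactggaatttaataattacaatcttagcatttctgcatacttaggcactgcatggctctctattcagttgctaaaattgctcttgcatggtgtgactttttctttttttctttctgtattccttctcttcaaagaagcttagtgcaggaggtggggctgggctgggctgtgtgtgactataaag
The first 3 hold 11, 17 and 11 CpG in these 200 bp, Lrg1 holds 1 and Trpm8 none.

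Among the marker genes checked, the summed FPKM of the 7 fibroblast genes was 4114 and 4067 in MEFs, then 274 and 85.5 in pre-iPSCs, and 192 and 201 for iPSCs. That of the 8 pluripotency genes was 0.168 and 0.735, 881 and 3689, and 1083 and 1238, with Nanog at 0 in both MEF columns, at 0.519 and 0 in pre-iPSCs, and at 49.5 and 73.6 in iPSCs. The pre-iPSC sums were mostly Pou5f1 (378 and 3184), Sox2 (272 and 171) and Tdgf1 (228 and 333), and Pou5f1 and Sox2 are Yamanaka factors. Zfp42, Dppa3 and Esrrb were at most 0.0837 in pre-iPSCs and at least 11.3 in iPSCs. Tcfcp2l1 was at 1.35 and 0.939 in pre-iPSCs, and at 3.86 and 5.53 in iPSCs. The 5 genes of other cells summed to at most 15.9, of which Hbb-b1 was at 0 throughout and Pecam1 reached 15.9 in iPSCs. Fibroblast transcripts thus remained in the cells grown on feeders, and their part in the results below was not tested. The called nucleosomes held between 12007350 and 15222040 reads in the libraries of the 3 marks and between 67362868 and 108211816 in those of H3. At the depth of the marks 1 RPKM (reads scaled to promoter length and to the unique reads of the library) in a promoter is 29.5 to 37.7 reads, and 30 reads have a 95% Poisson interval of 20.2 to 42.8, which covers counting error only.

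Silent promoters carried little H3K4me3. Their median level for replicates 1 and 2 was 0.271 and 0.318 RPKM in MEFs, then 0.337 and 0.292 in pre-iPSCs, and 0.341 and 0.329 for iPSCs. The other promoters had 1.49 and 1.15, 1.01 and 0.942, and 1.02 and 0.954 RPKM. A level above 1 RPKM was found in 2.01 ± 1.03% of the members and 52.4 ± 9.73% of the other promoters (SD, n = 6 libraries). Members had the lower share in 6 of 6 libraries (exact two-sided sign-flip permutation test, p = 0.0312, the smallest it can give, Benjamini-Hochberg adjusted p = 0.0625 over 6 tests). All 6 libraries pointed one way, but the adjusted p misses 0.05. In bulk chromatin a low level and a mark in few of the cells cannot be told apart.

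The members with H3K4me3 were nearly all CpG-rich. In HCG members 10.6 ± 5.36% were above 1 RPKM, and in LCG members 0.345 ± 0.241% (SD, n = 6 libraries). The HCG share was higher in 6 of 6 libraries, by 10.3 ± 5.18 percentage points (exact sign-flip permutation p = 0.0312, adjusted p = 0.0625). It ran from 4.07% in replicate 2 of MEFs to 17.8% in replicate 1 of iPSCs. HCG members stayed below the other HCG promoters: both replicates passed 1 RPKM at 2.96%, 4.44% and 11.1% of HCG members in the 3 cell types, in the order MEFs, pre-iPSCs, iPSCs, against 70.4%, 44.1% and 41.5% of the other HCG promoters.

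**Figure D1:**
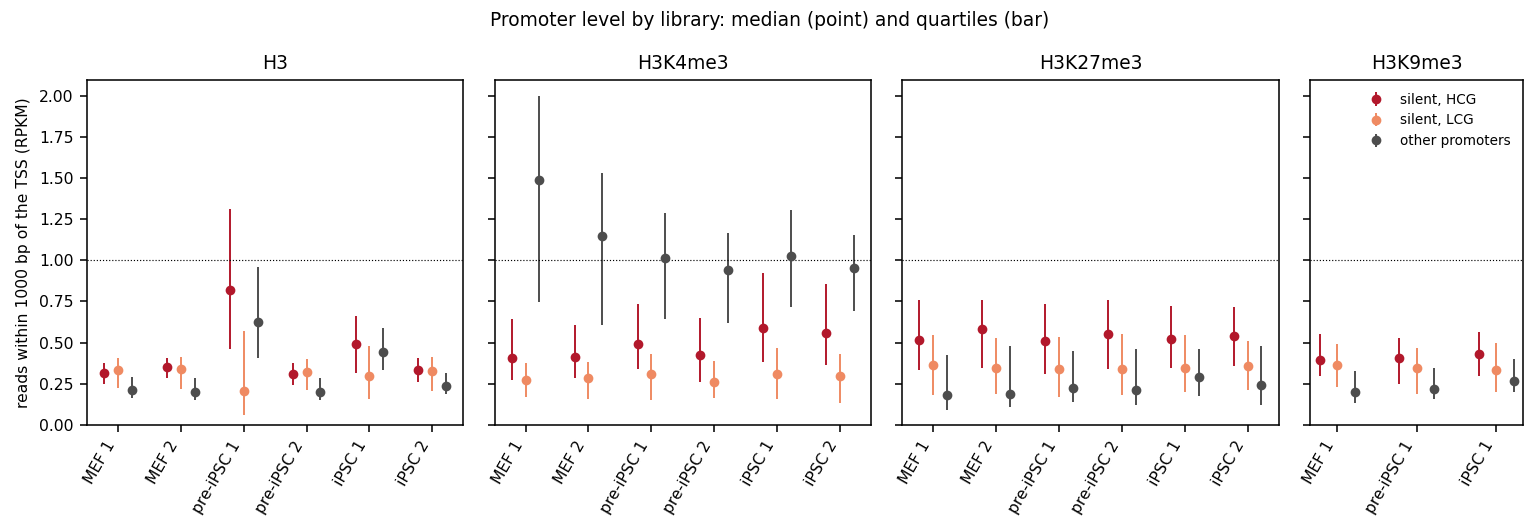
Level within 1000 bp of the TSS in RPKM (vertical axis) for each of the 21 libraries (horizontal axis, cell type and replicate), with 1 panel per antibody. Points are medians and bars the quartiles over HCG members, LCG members and the other promoters; the dotted line is 1 RPKM. The other promoters lie above both classes of members for H3K4me3 and below them for H3K27me3 in every library, and the H3 panel shows replicate 1 of pre-iPSCs apart from the rest.

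H3K27me3 showed another order. The median level of the members was 0.394 and 0.371 RPKM in MEFs, then 0.366 and 0.367 in pre-iPSCs, and 0.375 and 0.388 for iPSCs, and that of the other promoters lay between 0.182 and 0.288. The classes differed in this. HCG members had medians of 0.507 to 0.583 RPKM, above the 0.152 to 0.231 of the other HCG promoters in every library. LCG members had 0.336 to 0.364 RPKM and the other LCG promoters 0.364 to 0.432, with both at 0.364 in replicate 1 of MEFs and LCG members the lower in the other 5 libraries. A level above 1 RPKM was found at 2.37 ± 0.561% of members and 1.74 ± 0.719% of the others (SD, n = 6 libraries). The members were higher in 5 of 6 libraries, by 0.628 ± 0.531 percentage points (exact sign-flip permutation p = 0.0625, where the smallest it can give is 0.0312, adjusted p = 0.0938). This difference depends on the setting, at 2.60 points scaled to reads in calls, 1.80 within 500 bp and -0.0185 at 2 RPKM. HCG members were above 1 RPKM in 5.99 ± 1.58% and LCG members in 1.67 ± 0.607%, again in the same direction in 6 of 6 libraries (exact sign-flip permutation p = 0.0312, adjusted p = 0.0625).

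Nucleosome occupancy, measured by H3, depended on the library. In MEFs the median of the members was 0.335 and 0.342 RPKM and that of the other promoters 0.212 and 0.198. In replicate 2 of pre-iPSCs and of iPSCs it was 0.315 and 0.330, against 0.199 and 0.238. In these 4 libraries the median of the members was the higher. HCG members had 0.309 to 0.351 RPKM in them and the other HCG promoters 0.182 to 0.222. LCG members had 0.335, 0.338, 0.320 and 0.325 RPKM, beside 0.335, 0.333, 0.331 and 0.362 in the other LCG promoters, so that the order varied within that class. In replicate 1 of pre-iPSCs and of iPSCs the order was the reverse, with 0.273 and 0.324 RPKM in members and 0.624 and 0.440 in the others. This reversal was one of the LCG class, at 0.204 and 0.296 RPKM in LCG members and 0.635 and 0.460 in the other LCG promoters, while HCG members stayed above the other HCG promoters, at 0.822 and 0.494 RPKM against 0.620 and 0.436. Over all 6 libraries the medians did not differ beyond their spread (members higher by 0.00143 RPKM on average, higher in 4 of 6, exact sign-flip permutation p = 0.969). In the pair of libraries that reverse the order, H3 at members also followed GC content more closely, with a Spearman rho across members of 0.722 and 0.655, against 0.118 to 0.378 in the other 4. These correlations run over 1670 promoters that share a library, they are descriptions, and the part of GC in the reversal was not tested.

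H3 at the start site, relative to the flank, was higher in HCG members than in the other HCG promoters in each of the 6 libraries. The H3 read density from 150 bp before to 50 bp after the TSS was divided by that of the flank, which lies 1000 to 2000 bp upstream. In MEFs the ratio was 0.887 and 0.989 for HCG members, 1.09 and 1.14 for LCG members, and 0.500 and 0.538 for the other promoters. In replicate 2 of pre-iPSCs and of iPSCs it was 0.851 and 0.985, 1.13 and 1.17, and 0.456 and 0.488 for the same groups. The ratio of the other HCG promoters was 0.299 to 0.388 in these 4 libraries, and that of the other LCG promoters 1.03 to 1.06, so HCG members lie above the former and LCG members near the latter. In replicate 1 of pre-iPSCs and of iPSCs all ratios were higher, at 3.19 and 1.63 for HCG members, 2.00 and 1.40 for LCG members and 1.26 and 0.844 for the other promoters. The other HCG promoters had 1.05 and 0.688 there and the other LCG promoters 1.92 and 1.42. Over 6 libraries the difference between HCG and LCG members was within its spread (0.0993 ± 0.565, HCG higher in 2 of 6, exact sign-flip permutation p = 0.875, adjusted p = 0.969). Without replicate 1 of pre-iPSCs the difference turned to -0.119.

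**Figure D2:**
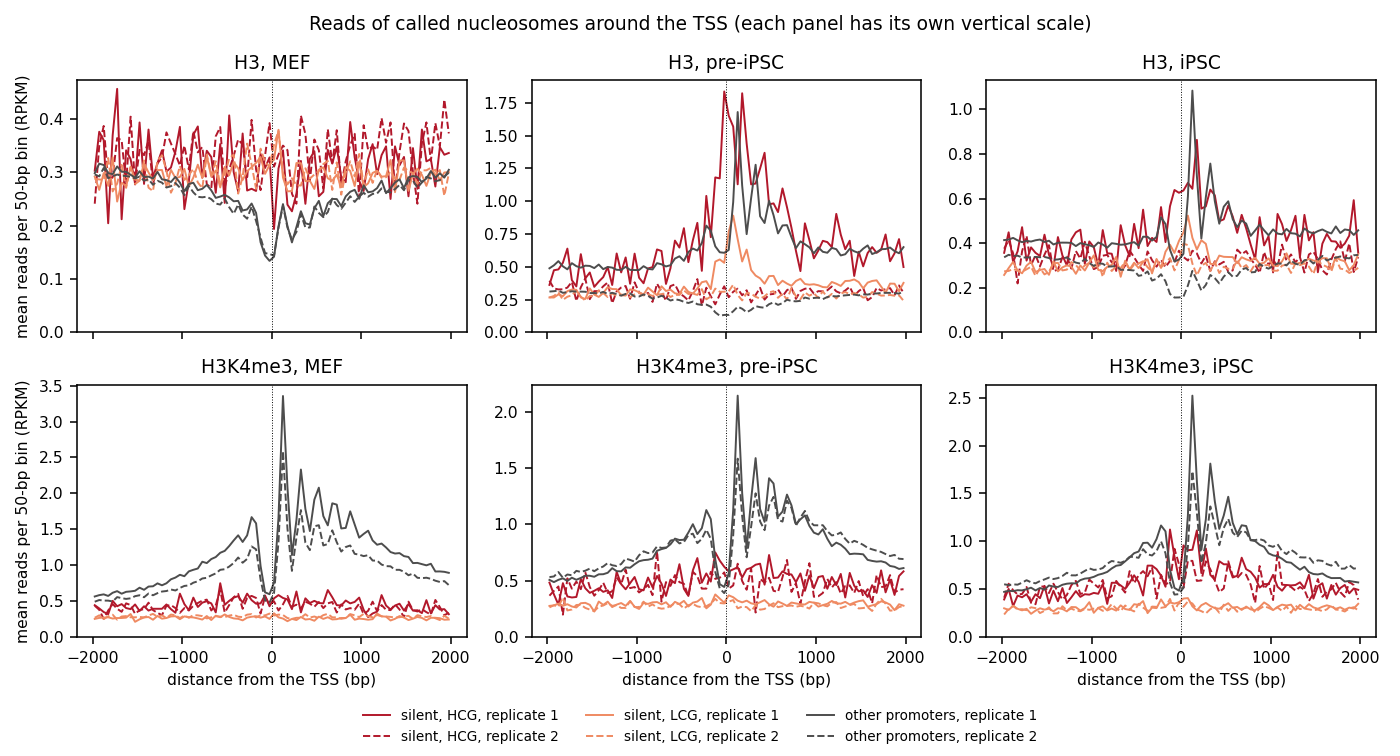
Mean reads of called nucleosomes in 50-bp bins in RPKM (vertical axis, a scale for each panel) against the distance from the TSS in bp (horizontal axis), for H3 and H3K4me3 in the 3 cell types. Solid and dashed lines are replicates 1 and 2 of HCG members, LCG members and the other promoters. In MEFs the lines of the other promoters dip in H3 around the TSS, while those of silent promoters show no dip of that width, and the H3K4me3 of silent HCG promoters rises around the TSS most in iPSCs.

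A silent promoter was called marked when it was above 1 RPKM in both replicates of a cell type. H3K4me3 was found on 9 members in MEFs, 13 in pre-iPSCs and 34 in the iPSCs, of which 8, 12 and 30 were HCG. The other promoters had 9242, 5791 and 5450, or 57.0%, 35.7% and 33.6% of them. H3K27me3 was found on 13, 17 and 8 members, of which 7, 7 and 4 were HCG, and on 148, 62 and 39 of the other promoters. With H3K27me3 these are 0.778%, 1.02% and 0.479% of the members, against 0.913%, 0.383% and 0.241% of the others. Within HCG promoters the shares were 2.59%, 2.59% and 1.48% of members and 0.891%, 0.264% and 0.178% of the others, and within LCG promoters 0.429%, 0.714% and 0.286% of members and 0.998%, 0.847% and 0.484% of the others. In MEFs, pre-iPSCs and iPSCs 98.7%, 98.3% and 97.7% of the members were marked by neither, where a promoter without reads counts as unmarked. These counts depend on the scaling and the cut. Scaled to reads in calls, H3K4me3 was on 31, 27 and 72 members and H3K27me3 on 69, 72 and 53. At 2 RPKM no member passed in both replicates with either mark in any cell type, and the highest single level of a marked member was 2.34 RPKM for H3K4me3 and 1.72 for H3K27me3. The window of 23 members meets that of a gene with FPKM above 0, and 3 of the 9 H3K4me3 promoters of MEFs (4933411G11Rik, Hist2h2ab and Iqch) are among them, as are 2 of the 34 of iPSCs (Gm711 and Pth2) and, for H3K27me3, Pth2 in MEFs and pre-iPSCs.

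**Figure D3:**
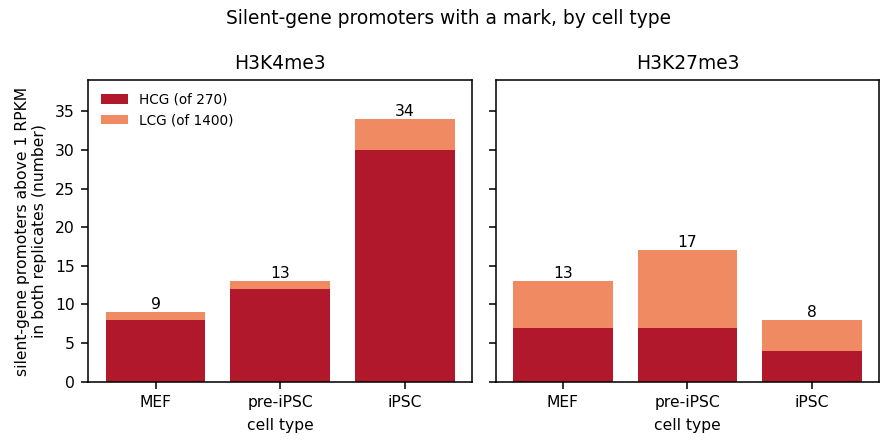
Number of silent-gene promoters above 1 RPKM in both replicates (vertical axis) by cell type (horizontal axis) for H3K4me3 and H3K27me3, split into HCG and LCG. The bars for H3K4me3 reach 9, 13 and 34, nearly all HCG, and those for H3K27me3 reach 13, 17 and 8, with LCG promoters making up 6, 10 and 4.

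Only Foxb2, a forkhead transcription factor, and Slc24a4, an exchanger of sodium for calcium and potassium, had H3K4me3 in both replicates of all 3 cell types. Foxb2 was at 1.29 and 1.15 RPKM in MEFs, then 1.07 and 1.49 in pre-iPSCs, and 1.18 and 1.32 for iPSCs. Slc24a4 was at 1.25 and 1.02, 1.29 and 1.23, and 1.55 and 1.28 RPKM. The values of Foxb2 overlap between the 3 cell types. Those of Slc24a4 in iPSCs lie above both MEF values, without passing the test (log2 change 0.66, SE 0.25, edgeR adjusted p = 0.0711).

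The highest mean H3K4me3 belonged to Nr2e1, Chrm2 and Trpm8. Nr2e1, a nuclear receptor of neural stem cells, was at 0.915 and 1.21 RPKM in MEFs, then 2.15 and 1.75 in pre-iPSCs, and 1.58 and 1.68 for iPSCs. MEFs were lowest and no MEF library reached those of the other cells. It rose in pre-iPSCs against MEFs (log2 change 1.24, SE 0.25, edgeR adjusted p = 0.00267) and in iPSCs against MEFs (0.94, SE 0.26, adjusted p = 0.0131). Chrm2, the muscarinic acetylcholine receptor M2, went the other way, from 2.34 and 1.53 RPKM in MEFs through 0.951 and 1.49 in pre-iPSCs to 0.807 and 0.856 in iPSCs. It fell in iPSCs against MEFs (log2 change -0.86, SE 0.27, adjusted p = 0.0280), and the call was lost without replicate 1 of MEFs and without either iPSC library. Hs3st2, a heparan sulfate sulfotransferase, went from 0.237 and 0.541 RPKM in MEFs to 1.63 and 1.33 in pre-iPSCs, and 1.71 and 1.42 for iPSCs. Its MEF values lie well below those of the other cells, with log2 changes of 2.27 (SE 0.33, adjusted p = 3.05e-05) in pre-iPSCs and 2.31 (SE 0.33, adjusted p = 1.91e-05) in iPSCs against the same MEF libraries.

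Trpm8, the cold- and menthol-gated channel, had a high mean level with every antibody. Its H3K4me3 was 1.29 and 0.733 RPKM in MEFs, then 1.26 and 1.85 in pre-iPSCs, and 1.06 and 1.45 for iPSCs. Its H3 was 1.54 and 0.784, 0.631 and 1.07, and 0.980 and 1.66, and its H3K27me3 1.27 and 0.742, 1.15 and 1.22, and 1.41 and 1.31. Its H3K9me3 was 0.853, 1.44 and 1.42. The promoter is LCG and ranks in the 3 highest of the 1670 for H3, H3K4me3 and H3K9me3 alike, so its marks go with a high recovery of this sequence with the H3 antibody, whose part in them was not tested. St6galnac1, a sialyltransferase gene, and Hhatl are the others with the highest mean H3. Their means rest on replicate 1 of pre-iPSCs, at 3.13 and 3.09 RPKM against 0.586 to 1.16 and 0.315 to 1.41 in the other 5 libraries.

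Of the members with H3K4me3 in MEFs, 7 had it there and not in both replicates of another cell type. They are Chrm2, the potassium channel subunit gene Kcne3, Tmem196, the sperm membrane protein gene Tmem95, the histone H2A gene Hist2h2ab, Iqch and 4933411G11Rik. Tmem95 had 1.80 and 1.34 RPKM in MEFs, then 0.828 and 1.04 in pre-iPSCs, and 1.02 and 0.954 for iPSCs, so in the reprogrammed cells it lies on both sides of the cut. In pre-iPSCs only, the homeobox gene Otp (1.01 and 1.20 RPKM) and Rfx6, a factor of pancreatic endocrine cells (1.56 and 1.20 RPKM), passed. In iPSCs only, 23 members passed. Among these are the neuropeptide genes Avp, Cartpt and Pth2, the receptor genes Ghsr, Galr3, Gpr6 and Ptgdr, the connexin genes Gjb6 and Gjd2, and the transcription factor genes Atoh7, Bhlhe23 and Vsx1. These names follow from the count and not from the rule for named genes. Passing in iPSCs only is not a called gain. Gjb6 had 1.19 and 0.987 RPKM in MEFs, Atoh7 1.22 and 0.828, and Galr3 0.881 and 1.02, and none of them was called in iPSCs against MEFs. Avp, Bhlhe23, Ghsr, Gjd2 and Gpr6 were called higher in that comparison. Cartpt had 0.474 and 0.318 RPKM in MEFs, then 0.859 and 0.520 in pre-iPSCs, and 1.12 and 1.32 for iPSCs. Its groups do not overlap, and it rose in iPSCs against MEFs (log2 change 1.96, SE 0.35, edgeR adjusted p = 0.000304). Both marks of the bivalent state were found on no member in MEFs, on Accn4 and Trpm8 in pre-iPSCs, and on Accn4, Helt and Trpm8 in iPSCs. The other promoters had 23, 14 and 22 with both marks.

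**Figure D4:**
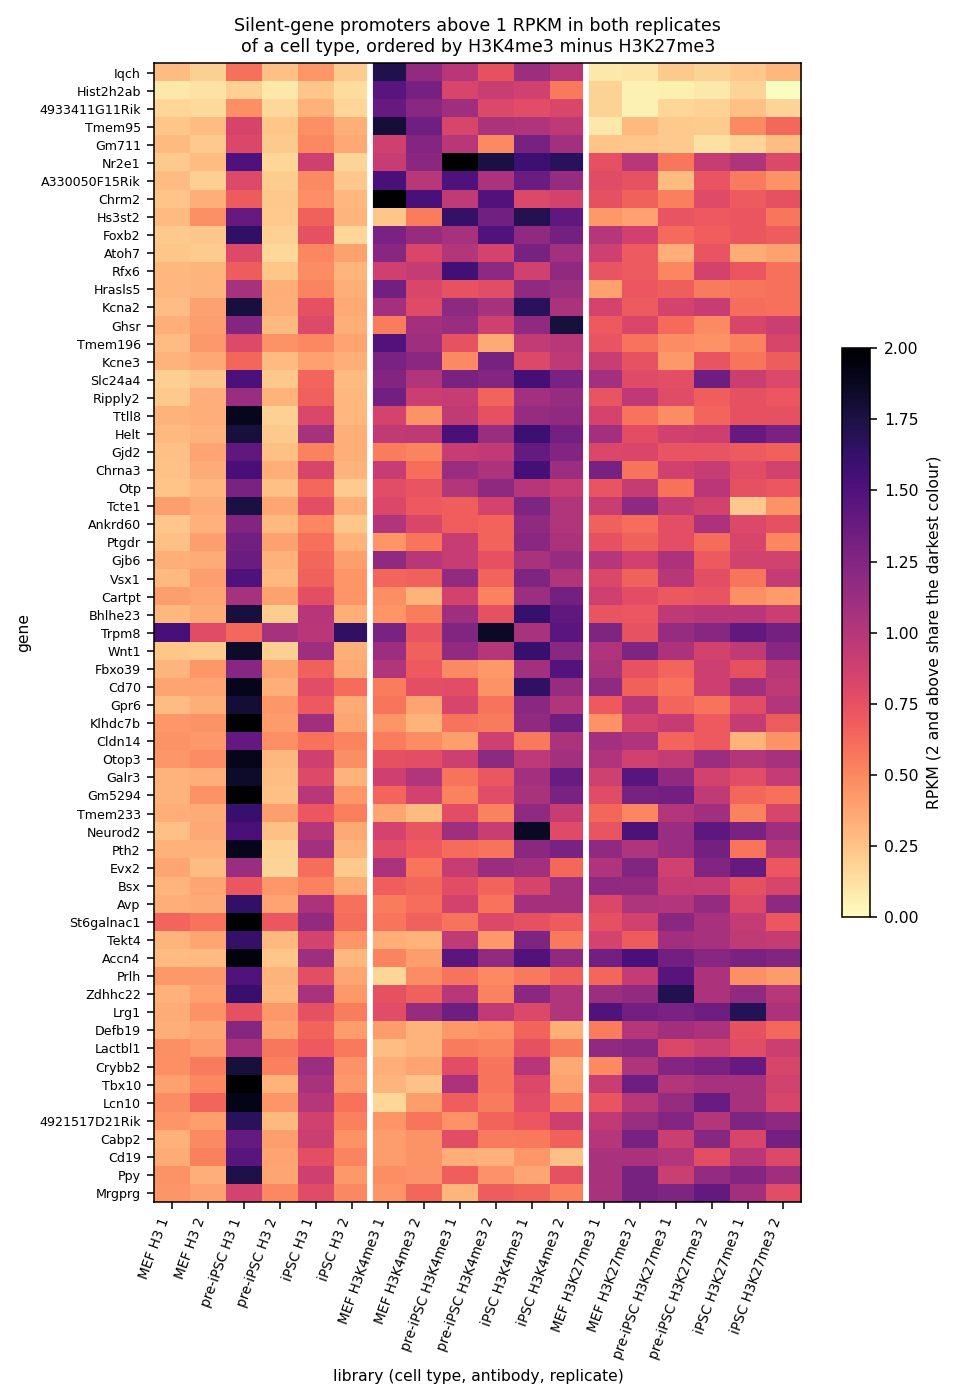
Heat map of the 63 members marked by H3K4me3 or H3K27me3 in both replicates of any cell type (rows, gene symbols) in the 18 libraries of H3, H3K4me3 and H3K27me3 (columns). Colour gives RPKM, and rows are ordered by mean H3K4me3 minus mean H3K27me3. Iqch, Hist2h2ab and 4933411G11Rik at the top have H3K4me3 with little H3K27me3, Mrgprg and Ppy at the bottom the reverse, and the column of H3 replicate 1 of pre-iPSCs is darker than the other H3 columns except for Hist2h2ab, Lrg1 and Trpm8.

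The highest mean H3K27me3 belonged to Lrg1, Accn4 and Zdhhc22. Lrg1, a secreted leucine-rich glycoprotein gene, had 1.49 and 1.32 RPKM in MEFs, then 1.29 and 1.34 in pre-iPSCs, and 1.70 and 1.04 for iPSCs. Accn4, a gene of the acid-sensing channel family, had 1.33 and 1.54, 1.32 and 1.22, and 1.30 and 1.25 RPKM. These were the only members with H3K27me3 in both replicates of all 3 cell types, and neither was called for H3K27me3 in a comparison. H3 at Lrg1 lay between 0.346 and 0.752 RPKM. Its H3K4me3 was 0.779 and 1.15, 1.35 and 0.942, and 0.807 and 1.02 RPKM, so that 1 replicate of each cell type passed 1 RPKM. Accn4 took H3K4me3 in addition, from 0.508 and 0.414 RPKM in MEFs to 1.44 and 1.17 in pre-iPSCs, and 1.49 and 1.18 for iPSCs. Its H3K4me3 rose in both against the same MEF libraries (log2 change 1.87, SE 0.31, edgeR adjusted p = 0.000217 and 0.000136). Its H3 was 0.237 to 0.303 RPKM in 4 libraries and 1.95 and 1.11 in replicate 1 of pre-iPSCs and of iPSCs. Zdhhc22, of the family of palmitoyltransferases, had 1.12 and 1.17, 1.72 and 1.04, and 1.18 and 0.985 RPKM of H3K27me3.

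Counts were then compared between cell types in 1 fit over all promoters for each mark (edgeR, TMM scaling, false discovery rate 0.05). Of the 1670 members, 1102 passed the filter on low counts for H3K4me3, 1263 for H3K27me3 and 1507 for H3, so the counts below do not cover all members. For H3 no member and no other promoter of 19560 was called in any comparison, a background of 0%. At an unadjusted p below 0.05 edgeR counted 6, 3 and 2 members in pre-iPSCs against MEFs, iPSCs against pre-iPSCs and iPSCs against MEFs, or 0.398%, 0.199% and 0.133%, where 1.89%, 0.542% and 1.53% of all promoters were below it. DESeq2 called 0 as well, with 6, 0 and 3 members below that level (0.375%, 0% and 0.187%, against 0.959%, 0.201% and 0.668% of all). The simulated H3 counts gave 10 of 100 promoters changed 4-fold and 0 of 100 changed 2-fold in iPSCs against MEFs, so changes of this size were mostly not detectable. Without replicate 2 of pre-iPSCs the fit called 35 members higher and 753 lower in pre-iPSCs against MEFs, and 467 higher with 1 lower between pre-iPSCs and iPSCs. Over all promoters that fit called 5.98% higher and 17.4% lower in the first of these and 10.5% and 0.439% in the second, and 0% in iPSCs against MEFs. Its pre-iPSC group is replicate 1 alone, the library that follows GC most closely, which is assumed to vary like the others. The scaling matters here too: the median log2 change of the members in iPSCs against MEFs was -0.43 beside 0.05 over all promoters with TMM, and 0.05 beside 0.60 when scaled to unique reads.

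With TMM scaling, H3K4me3 was higher in the reprogrammed cells at most silent promoters tested, though most of these changes were not called. The log2 change against MEFs was above 0 at 902 of 1102 members in pre-iPSCs and at 922 in iPSCs. Among the other promoters it was above 0 at 7328 and 7170 of 15637. The difference was one of the HCG class, with 184 and 213 of 240 HCG members and 5024 and 4848 of 12780 other HCG promoters. LCG members were above 0 at 718 and 709 of 862, a share near that of the other LCG promoters, at 2304 and 2322 of 2857. In pre-iPSCs against MEFs 41 of 1102 members were called higher (3.72%) and none lower, where 3.01% of the 17698 promoters tested were higher and 0.825% lower. In iPSCs against MEFs 190 were higher (17.2%) and 2 lower, the latter Chrm2 and Ugt2a2, with a background of 9.7% higher and 4.12% lower. Between pre-iPSCs and iPSCs no promoter was called (background 0% in both directions), and 67 members (6.08%, against 8.96% of all promoters) were below an unadjusted p of 0.05 with edgeR and 12 (0.763%, against 1.57%) with DESeq2. The pre-iPSC count is thus near its background, and the iPSC count is above it. The pooled pre-iPSC share hides a split by class, with 7.92% of HCG members and 2.04% of the other HCG promoters higher, but 2.55% of LCG members and 7.91% of the other LCG promoters. Both comparisons with MEFs share the MEF libraries and lean on replicate 1: without it 5 members were called higher in pre-iPSCs (0.401%, background 0.458%) and 31 in iPSCs (2.49%, background 2.64%), so that the iPSC share was no longer above its background. The first count was 6 and 16 without replicate 1 or 2 of pre-iPSCs (0.485% and 1.30%, backgrounds 1.17% and 0.947%), and the second 76 and 101 without replicate 1 or 2 of iPSCs (6.14% and 8.17%, backgrounds 4.19% and 6.24%).

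The direction rests in part on the scaling. The median log2 change of the members was 0.52 in pre-iPSCs and 0.64 in iPSCs against MEFs, beside -0.01 and -0.03 over all promoters. Scaled to unique reads, which moves the median of all promoters to -0.39 and -0.37, the members had 0.15 and 0.31, and 18 were called higher and 9 lower for pre-iPSCs, then 95 and 11 for iPSCs. The background under this scaling was mostly lower, with 1.31% higher and 6.32% lower in pre-iPSCs and 4.75% and 13.2% in iPSCs. Between the reprogrammed stages 1 member was then called higher, beside 0.102% of all promoters higher and 0.017% lower. DESeq2 called 2 and 11 members higher (0.240% and 1.04%, backgrounds 0.179% and 0.633%). By class, 83 of 240 HCG members (34.6%) and 107 of 862 LCG members (12.4%) were higher in iPSCs against MEFs, beside 6.98% of the other HCG and 21.4% of the other LCG promoters. The median change of LCG members, 0.61, was near that of the other LCG promoters, 0.66, while HCG members had 0.88 and the other HCG promoters -0.14. Only promoters that passed the filter enter these numbers. H3K4me3 at members followed GC content more closely after reprogramming. Across all members the Spearman rho was 0.219 and 0.243 for MEFs. The pre-iPSC libraries had 0.542 and 0.444, the iPSC libraries 0.594 and 0.542. Across the other promoters it was 0.461 and 0.449, 0.491 and 0.431, then 0.579 and 0.506, in the same order. These values are descriptions, and the part of GC in the rises of HCG members was not tested.

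**Figure D5:**
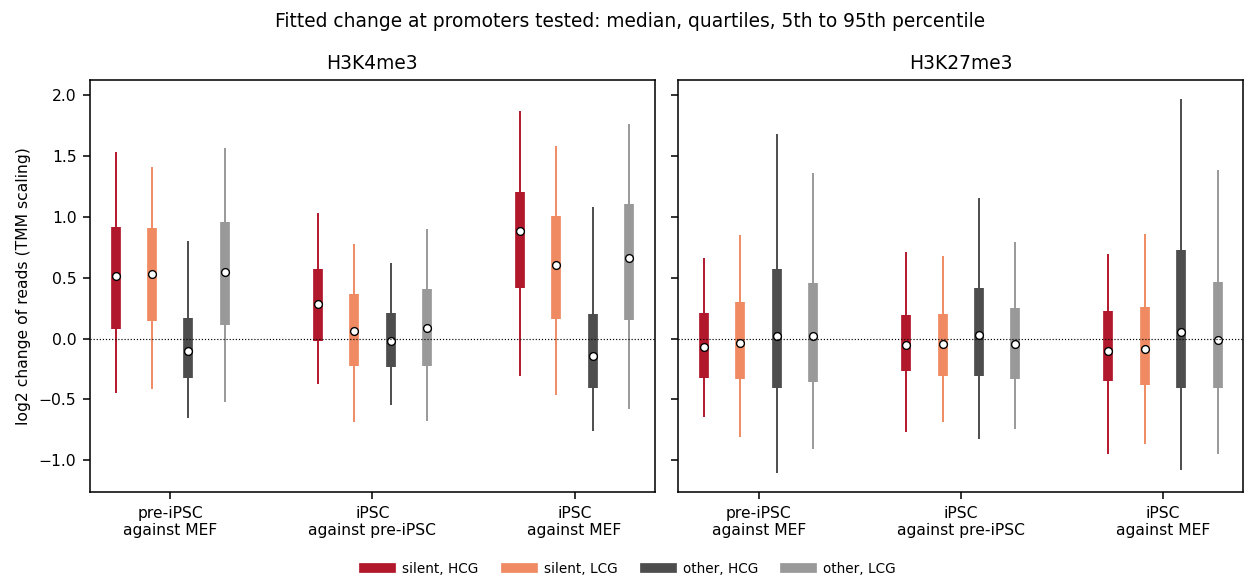
Fitted log2 change of reads with TMM scaling (vertical axis) in the 3 comparisons (horizontal axis) for H3K4me3 and H3K27me3. White points are medians, thick bars quartiles and thin bars the 5th to 95th percentiles of the promoters tested, for silent and other promoters of each CpG class. For H3K4me3 in iPSCs against MEFs the medians are 0.88 for silent HCG and -0.14 for other HCG promoters, and for H3K27me3 all medians lie near 0.

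The largest called rises of H3K4me3 began from very low levels, which a ranking by log2 change favours. In iPSCs against MEFs Daf2, a complement regulator gene, went from 0.0678 and 0.127 RPKM to 0.497 and 0.592 (log2 change 2.75, SE 0.56, edgeR adjusted p = 0.00106). Cmtm2a, of the CKLF-like family, went from 0.0339 and 0.127 to 0.310 and 0.559 (2.67, SE 0.63, adjusted p = 0.00406). The third, 4921528I01Rik, went from 0.0678 and 0.127 to 0.435 and 0.559 (2.61, SE 0.58, adjusted p = 0.00224). In this order their MEF libraries held 2 and 4, 1 and 4, and 2 and 4 reads, so they passed the filter on low counts through the reprogrammed cells. None of these reached 1 RPKM in any library, and without replicate 1 of MEFs the last 2 were no longer called, nor was Cmtm2a without replicate 2 of iPSCs. Ugt2a2, a glucuronosyltransferase gene, fell from 0.271 and 0.478 to 0.0310 and 0.0987 RPKM (log2 change -2.16, SE 0.71, adjusted p = 0.0348), a call kept without replicate 1 of MEFs and lost without any other library. In pre-iPSCs against MEFs the largest rises were those of Pla2g2a, a secreted phospholipase gene (0.169 and 0.127 to 0.705 and 0.520 RPKM, log2 change 2.40, SE 0.49, adjusted p = 0.00273), Hs3st2, and the tryptase gene Tpsg1 (0.237 and 0.127 to 0.552 and 0.780 RPKM, 2.23, SE 0.49, adjusted p = 0.00484). In MEFs Pla2g2a held 5 and 4 reads and Tpsg1 7 and 4, so both passed the filter on low counts through the reprogrammed cells. The call of Pla2g2a was lost without replicate 1 of pre-iPSCs, that of Tpsg1 without replicate 2, and that of Hs3st2 under no alternative. The TSS of Pla2g2a lies in the body of a gene with FPKM above 0.

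H3K27me3 changed at fewer silent promoters, and in both directions. In pre-iPSCs against MEFs 13 of 1263 members were called higher (1.03%) and 7 lower (0.554%), below the background of 5.15% and 3.12% of 10406 promoters. In iPSCs against MEFs 17 were higher (1.35%) and 14 lower (1.11%), with a background of 7.34% and 3.87%. Between pre-iPSCs and iPSCs none were higher and 2 lower, Prlh and Tcte1, with a background of 0.673% and 0.135%. The median log2 change of the members was -0.04, -0.05 and -0.09 in pre-iPSCs against MEFs, iPSCs against pre-iPSCs and iPSCs against MEFs, beside -0.013, -0.00033 and -0.0030 over all promoters. DESeq2 called 0, 0 and 1 member, the last lower (0.0903%, background 0.289%). Without replicate 1 of MEFs 3 members were called higher in pre-iPSCs (0.227%, background 1.69%) and 7 in iPSCs (0.529%, background 2.86%). Without replicate 1 of iPSCs 6 were called higher (0.448%, background 2.63%) and 0 lower (background 1.25%) in iPSCs against MEFs. The 17 include Pcdha4 and Pcdha4-g, which share a TSS.

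The 3 largest rises of H3K27me3 in iPSCs against MEFs were at the LCG promoters of Psg27, Cst7 and Cd209b. Psg27, a pregnancy-specific glycoprotein gene, went from 0.0606 and 0.106 RPKM in MEFs to 0.507 and 0.245 in pre-iPSCs, and 0.490 and 0.388 for iPSCs. Cst7, the gene of cystatin F, went from 0.121 and 0.291 to 0.703 and 0.856 and then 1.01 and 0.896. Cd209b, a C-type lectin gene, went from 0.152 and 0.185 to 0.591 and 0.367 and then 0.893 and 0.597. In each the MEF values lie below all others, which a choice of the largest rises favours. The MEF libraries held 2 and 4 reads at Psg27, 4 and 11 at Cst7, and 5 and 7 at Cd209b. Psg27 and Cd209b thus passed the filter on low counts through the reprogrammed cells. Against MEFs the log2 changes in iPSCs were 2.28 (SE 0.57, edgeR adjusted p = 0.00379), 2.10 (SE 0.39, adjusted p = 0.000127) and 2.06 (SE 0.44, adjusted p = 0.000575). In pre-iPSCs those of Psg27 and Cst7 were 2.12 (SE 0.58, adjusted p = 0.0120) and 1.86 (SE 0.41, adjusted p = 0.00155), and these calls were lost without replicate 1 of MEFs and, for Psg27, without replicate 1 of pre-iPSCs. The call of Psg27 in iPSCs was lost without replicate 1 of iPSCs. H28, which is HCG, was at 0.0606 and 0.0530 RPKM in MEFs and 0.225 and 0.336 in pre-iPSCs (log2 change 2.23, SE 0.73, adjusted p = 0.0430), and its call was lost when any 1 library was left out. Its MEF libraries held 2 and 2 reads, so H28 too passed the filter through the reprogrammed cells.

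Among the falls, Tcte1, a gene of the sperm axoneme, had 0.909 and 1.19 RPKM of H3K27me3 in MEFs, then 0.929 and 0.856 in pre-iPSCs, and 0.231 and 0.448 for iPSCs. The iPSC values lie below all others (log2 change -1.69, SE 0.35, edgeR adjusted p = 0.000475 against MEFs, and -1.44, SE 0.36, adjusted p = 0.0318 against pre-iPSCs). Its H3K4me3 went the other way, from 0.813 and 0.701 RPKM in MEFs and 0.675 and 0.845 in pre-iPSCs to 1.27 and 1.02 in iPSCs (0.94, SE 0.30, adjusted p = 0.0302 against MEFs). Prlh, the gene of prolactin-releasing hormone, had 0.637 and 0.927 RPKM of H3K27me3 in MEFs, then 1.46 and 1.04 in pre-iPSCs, and 0.461 and 0.418 for iPSCs, and fell between the last 2 (-1.56, SE 0.32, adjusted p = 0.00749). The claudin gene Cldn14 fell from 1.09 and 1.03 in MEFs to 0.317 and 0.448 RPKM in iPSCs (-1.52, SE 0.34, adjusted p = 0.00104), and the serine protease gene Prss48 from 0.303 and 0.556 to 0.144 and 0.149 (-1.60, SE 0.50, adjusted p = 0.0238). In pre-iPSCs against MEFs the falls were led by the ribonuclease gene Ang4 (0.364 and 0.795 to 0.113 and 0.122 RPKM, -2.30, SE 0.49, adjusted p = 0.00104), 4930511M11Rik (-2.02, SE 0.63, adjusted p = 0.0295) and Krtap22-2 (-1.86, SE 0.56, adjusted p = 0.0248). H3 at Ang4 was 0.162 and 0.649 RPKM in MEFs and 0.320 and 0.254 in pre-iPSCs, so that replicate 2 of MEFs is the highest for both antibodies, and without it the call was lost. The falls of 4930511M11Rik and Krtap22-2 were each lost without any 1 of the 4 libraries compared. At 4930511M11Rik there were 11 and 15 reads in MEFs and 3 and 3 in pre-iPSCs, so it passed the filter on low counts through MEFs. Those of Tcte1 and Cldn14 in iPSCs against MEFs were lost without replicate 1 of iPSCs, that of Prss48 also without replicate 2 of either cell type, and that of Prlh without replicate 1 of either. The fall of Tcte1 against pre-iPSCs was lost without either pre-iPSC library or replicate 1 of iPSCs.

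H3K9me3 was measured once per cell type, so there is no replicate check and no test. Its median at members was 0.361, 0.343 and 0.364 RPKM in MEFs, pre-iPSCs and iPSCs, against 0.197, 0.218 and 0.265 in the other promoters. The mean over members was 0.365 RPKM (95% Poisson interval 0.360 to 0.371), 0.341 (0.336 to 0.346) and 0.362 (0.357 to 0.367), and over the other promoters 0.239 (0.238 to 0.241), 0.263 (0.261 to 0.264) and 0.305 (0.304 to 0.307). Members were higher than the others in each library. By class, HCG members had means of 0.414, 0.397 and 0.433 RPKM, above the 0.211, 0.235 and 0.282 of the other HCG promoters. The comparison with other LCG promoters was closer, with 0.356, 0.330 and 0.348 RPKM for LCG members and 0.351, 0.372 and 0.396 for the other LCG promoters. Above 1 RPKM were 5, 3 and 8 members, or 0.299%, 0.180% and 0.479%, and 0.142%, 0.111% and 0.247% of the other promoters. For LCG members the shares were 0.357%, 0.143% and 0.429%, beside 0.333%, 0.272% and 0.726% of the other LCG promoters.

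The members with the highest mean H3K9me3 were Trpm8, Gm6531 and Lrg1. Gm6531 had 1.18 RPKM in MEFs, 0.562 in pre-iPSCs, and 1.79 for iPSCs, and Lrg1 had 1.18, 0.905 and 0.960. Among members with at least 20 reads in 1 of the libraries compared, 19 of 248 were at least 2-fold higher and 22 lower in pre-iPSCs against MEFs, 38 of 259 higher with 16 lower between pre-iPSCs and iPSCs, and 27 of 257 higher and 10 lower in iPSCs against MEFs. The shares, 7.66% and 8.87%, 14.7% and 6.18%, and 10.5% and 3.89%, were below the backgrounds of all promoters with as many reads, 11.2% and 17.4%, 20.1% and 8.8%, and 20.6% and 11.8%.

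By gene list, 1171 of the members fell in none of the lists. The lists go by the start of the symbol, so they hold some genes that their names do not describe and miss some that they do. The marks carried by the members in a list differed from list to list. The 19 developmental transcription factors, 15 of them HCG, had the highest medians of both marks, with H3K4me3 of 0.738, 0.814 and 0.962 RPKM and H3K27me3 of 0.827, 0.740 and 0.751 in MEFs, pre-iPSCs and iPSCs. H3K4me3 was present in both replicates on 1, 3 and 5 of them and H3K27me3 on 2, 2 and 1. In all 10 of the 19 carried a mark somewhere: Atoh7, Bhlhe23, Bsx, Evx2, Foxb2, Neurod2, Nr2e1, Otp, Tbx10 and Vsx1. All 19 were tested, and 4 rose and none fell in H3K4me3 in pre-iPSCs against MEFs (background 3.01% higher, and 7.92% of HCG members). In iPSCs against MEFs 7 rose and none fell (background 9.7%, 17.2% of all members tested and 34.6% of HCG members), a share near that of the HCG members. H3K27me3 fell at 2 of 19 in iPSCs against MEFs, Atoh7 and Nkx2-6 (background 3.87% lower). Neurod2, a neuronal bHLH factor, had the highest H3K27me3 and H3K9me3 of the list, with 0.727 and 1.51, 1.13 and 1.44, and 1.30 and 1.10 RPKM of H3K27me3. The 2 MEF values of Neurod2 span those of the other cells.

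Of the 28 ion channels and transmitter receptors 14 were HCG. H3K4me3 was present on 2, 3 and 3 and H3K27me3 on 0, 1 and 1, on Chrm2, Chrna3, Kcna2, Kcne3 and Trpm8 in all. Accn4, of the acid-sensing channel family, is missed by this list through its symbol. It had H3K27me3 in all 3 cell types and H3K4me3 in pre-iPSCs and iPSCs. Of 28 tested, 3 rose in H3K4me3 in pre-iPSCs against MEFs (background 3.01%), and 10 rose and 1 fell in iPSCs against MEFs (background 9.7% higher and 4.12% lower). Among all members tested, 7.92% of HCG and 2.55% of LCG promoters rose in the first comparison, and 34.6% and 12.4% in the second. Chrna3, a nicotinic receptor subunit gene, had 0.915 and 0.605 RPKM in MEFs, then 1.13 and 1.04 in pre-iPSCs, and 1.55 and 1.12 for iPSCs, with MEFs below the rest (iPSCs against MEFs, log2 change 1.16, SE 0.28, edgeR adjusted p = 0.00521). Kcna2, of a voltage-gated potassium channel, had 1.08 and 0.796, 1.20 and 1.07, and 1.68 and 1.05 RPKM (0.89, SE 0.27, adjusted p = 0.0243).

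Few members of the other lists were marked. The 60 keratins and keratin-associated proteins had no marked promoter, although 9 of 41 tested rose in H3K4me3 in iPSCs against MEFs (background 9.7%, and 17.2% of all members tested). Krt75 went from 0.508 and 0.446 to 0.807 and 0.790 RPKM (log2 change 1.08, SE 0.37, edgeR adjusted p = 0.0405), and Krt82, with the highest H3K27me3 of the list, from 0.373 and 0.255 to 0.621 and 0.823 RPKM of H3K4me3 (1.54, SE 0.41, adjusted p = 0.0101). Both TSSs lie in the body of a gene with FPKM above 0. Krt76 had the highest H3K9me3 of the list, with 0.886, 0.499 and 0.728 RPKM.

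Of the 44 defensins 1 was marked, Defb19, with H3K27me3 in pre-iPSCs at 1.10 and 1.04 RPKM against 0.546 and 1.01 in MEFs. The highest H3K4me3 of the defensins was that of Defb43, at 0.318 to 0.745 RPKM, and the highest H3K9me3 that of Defb40, at 0.623, 0.780 and 0.596 RPKM. No defensin was called for H3K4me3 in a comparison, and 1 of 26 tested rose in H3K27me3 in iPSCs against MEFs (background 7.34%). Of the 63 taste, trace-amine and Mas-related receptors only Mrgprg was marked, with 1.06 and 1.30, 1.27 and 1.41, and 1.10 and 0.776 RPKM of H3K27me3, and 1 of 42 tested rose in H3K27me3 in iPSCs against MEFs, against the same background. Mrgprb8 had the highest H3K9me3 of that list, with 0.656, 0.530 and 0.861 RPKM.

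No interferon of 15 and no cytokine or chemokine of 26 was marked. Ifne had the highest level of all 3 marks among the interferons, with H3K4me3 of 0.362 to 0.520 RPKM. Il13 had the highest H3K27me3 of the cytokines, at 0.879 and 1.03, 0.900 and 1.07, and 0.778 and 1.13 RPKM, so that 1 replicate of each cell type passed 1 RPKM. Its H3K4me3 rose in iPSCs against MEFs, the only call of 18 cytokines tested (background 9.7%), from 0.305 and 0.255 to 0.528 and 0.724 RPKM (log2 change 1.49, SE 0.44, edgeR adjusted p = 0.0185). Ccl26, an eotaxin gene, had the highest H3K4me3 and H3K9me3, the latter at 0.984, 0.655 and 0.993 RPKM. Of the cytokines 5 had no H3 read in any library, as had 69 members in all (4.13%) and 61 of the other promoters (0.376%). For H3K4me3 in replicate 1 of MEFs, 137 of 1400 LCG members and 81 of 3306 other LCG promoters had no read. Such promoters stay in the medians and shares above, and their part in the levels of LCG members was not tested. A promoter without unique reads has no level to compare.

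The list of lectin-like and Fc immune receptors, with 57 members, takes in every symbol that starts with Cd. Cd70, which encodes a TNF family ligand and no such receptor, had H3K4me3 in iPSCs at 1.65 and 1.15 RPKM against 0.542 and 0.764 in MEFs (log2 change 1.42, SE 0.31, edgeR adjusted p = 0.00209). Clec4f had the highest H3K9me3 of that list, with 0.952, 0.749 and 0.861 RPKM. In H3K4me3 3 of 32 tested rose in iPSCs against MEFs and none fell, a share near the background of 9.7% higher.

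Of the 38 members of the list of prolactins and placental proteins only Prlh was marked by H3K4me3 or H3K27me3. It is in the list by its symbol and encodes neither, so no prolactin or placental protein gene of the list carried either mark. Of 30 tested 4 rose in H3K27me3 in pre-iPSCs (background 5.15%) and 3 in iPSCs (background 7.34%) against MEFs, the latter a share near its background. Those in pre-iPSCs were Psg20, Psg22, Psg27 and Ceacam11 and those in iPSCs Psg27, Ceacam3 and Ceacam14. Ceacam3 had 0.152 and 0.318 RPKM in MEFs and 0.634 and 0.687 in iPSCs (log2 change 1.40, SE 0.41, edgeR adjusted p = 0.0177), and the highest H3K9me3 of the list, with 0.820, 0.718 and 0.629 RPKM. Prlhr, the receptor of the hormone that Prlh encodes, had the highest H3K4me3, at 0.869 and 0.889 RPKM in iPSCs.

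None of the 100 liver enzymes and serum proteins was marked, and their medians were the lowest of the lists for H3K4me3 in iPSCs, at 0.160 RPKM, and for H3K27me3 in MEFs, at 0.202. Of 36 tested 4 rose and 1 fell in H3K4me3 in iPSCs against MEFs, near the background of 9.7% higher and 4.12% lower. Apoc3, an apolipoprotein gene, had the highest H3K27me3, with 0.697 and 0.954, 0.591 and 0.734, and 0.720 and 0.746 RPKM, and its H3K4me3 rose from 0.136 and 0.350 to 0.621 and 0.757 (log2 change 1.80, SE 0.46, edgeR adjusted p = 0.00700). Cyp2b10 had the highest H3K4me3, at 0.318 to 0.691 RPKM, and Cyp2d12 the highest H3K9me3, with 0.656, 0.468 and 0.993 RPKM.

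Of the 27 germ-cell genes none was marked, and 4 of 13 tested rose in H3K4me3 in iPSCs against MEFs (background 9.7%). The protamine gene Prm2 had the highest H3K4me3, at 0.373 and 0.446, 0.521 and 0.682, and 0.776 and 0.625 RPKM, Spata3 the highest H3K27me3, at 0.490 to 0.866 RPKM, and Tssk5 the highest H3K9me3, with 0.656, 0.343 and 0.629 RPKM. Of the 17 lipocalins, odorant-binding proteins and secretoglobins, all LCG, Lcn10 had H3K27me3 in pre-iPSCs at 1.15 and 1.38 RPKM, and 3 of 16 tested rose in H3K4me3 in iPSCs against MEFs (background 9.7%, and 17.2% of all members tested). Lcn10 itself rose in H3K4me3, from 0.169 and 0.414 to 0.776 and 0.559 RPKM (edgeR adjusted p = 0.0186). Lcn4 had the highest H3K4me3 of that list, at 0.404 to 0.675 RPKM, and Lcn6 the highest H3K9me3, with 0.591, 0.718 and 1.06 RPKM. The 5 zinc finger proteins had no marked promoter and no call. Zfp804b had the highest H3K4me3 of these, with 1.46 and 0.955 RPKM in MEFs, Zfp366 the highest H3K27me3, with 1.00 and 0.927 RPKM in MEFs, and Zfp957 the highest H3K9me3, with 0.689, 0.437 and 0.629 RPKM. No member belonged to the list of small RNAs.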

How the data were processed

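The 21 MNase ChIP-seq libraries and 6 RNA-seq columns were processed by the authors. Per the labels and methods, reads were aligned to mm9 with Bowtie 1.0.1, unique reads were shifted by 73 bp, and nucleosomes were called with GeneTrack. The deposited nucleosome files give a read count for each call. The deposited FPKM were made with TopHat2 2.0.4 and Cufflinks 2.0.2. Uniquely mapped reads are lost from repeated sequence, so near-identical genes such as Hist2h2aa1 and Hist2h2aa2 are uncertain.

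Counts of calls within 1000 bp of each TSS were summed and divided by unique reads (RPKM), and 500 bp was an alternative. Counts were tested with edgeR 4.0.16 (quasi-likelihood test, TMM, Benjamini-Hochberg adjustment over all promoters tested) in R 4.3.3, with DESeq2 1.42.0 as an alternative. Shares over 6 libraries were compared with exact sign-flip permutation tests, by listing all sign changes in Python 3.11.15 with numpy 2.4.6. Spearman correlations and Poisson intervals were computed with scipy 1.17.1. A single promoter in 2 against 2 libraries cannot go below a permutation p of 0.333. H3K9me3 had 1 library per cell type and no test. Intervals cover counting error only. Simulated counts with known changes were used to test the edgeR step: in iPSCs against MEFs 64 of 100 promoters changed 2-fold and 100 of 100 changed 4-fold were recovered for H3K4me3 among 17698, and 46 and 100 for H3K27me3 among 10406. The changes were placed only in promoters with a mean of at least 20 reads, and all counts were drawn with 1 common spread. Medians of the members averaged 0.315 RPKM of H3K4me3 and 0.377 of H3K27me3, which is fewer reads. This recovery therefore does not cover most members. The members, the gene lists, written as beginnings of symbols, and the tests were chosen with earlier results of these data known. Named are the 3 members of highest mean level per antibody, the 3 with the largest called change in each direction per comparison and mark, and the highest of each gene list per mark. Members marked in both replicates were named after their counts were seen. No member had both marks in every cell type. The labels call replicates biological, but do not tie a library to a clone or preparation. A gene that the naming rule covers is not reported here.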

Additional observations from a re-analysis of the deposited data

How the results depend on the processing

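The limits are 2 libraries per group, levels near 1 RPKM of about 30 reads, and a digestion that differs in MEFs. The labels give no shared preparation for equal replicate numbers. With the replicate number as a block, 48 and 191 members were called higher for H3K4me3 in pre-iPSCs and iPSCs against MEFs, 11 and 16 higher and 7 and 10 lower for H3K27me3, while 1 fell from pre-iPSCs to iPSCs, and H3 had 0.

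For H3K4me3 in pre-iPSCs against MEFs the 41 higher were 2 with DESeq2, 18 scaled to unique reads (with 9 lower), 14 within 500 bp, and 5 to 53 leaving out 1 library. In iPSCs against MEFs the 190 were 11, 95 (11 lower), 69, 118 with calls of at least 2 reads, and 31 to 195, and the 2 lower were 0 with DESeq2 and within 500 bp, 3 with calls of at least 2 reads, 3 without a filter on low counts, and 0 to 1. In iPSCs against pre-iPSCs 1 was higher scaled to unique reads or without the filter, and 0 to 2 leaving out 1 library.

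For H3K27me3 in pre-iPSCs against MEFs the 13 higher were 0 with DESeq2, 4 without the filter, 2 within 500 bp and 3 to 13 leaving out 1 library, and the 7 lower were 0, 7, 0 and 2 to 9, and 3 with calls of at least 2 reads. In iPSCs against MEFs the 17 higher were 0, 6, 6 and 6 to 16, and the 14 lower were 1, 32, 0 and 0 to 25, 8 scaled to unique reads, and 7 with calls of at least 2 reads. In iPSCs against pre-iPSCs the 2 lower were 0 with DESeq2 and within 500 bp, and 0 to 4 leaving out 1 library, where 0 to 1 were higher. For H3, only leaving out replicate 2 of pre-iPSCs gave calls, from 0 to 35 higher and 0 to 753 lower in pre-iPSCs against MEFs and 0 to 467 higher with 0 to 1 lower between pre-iPSCs and iPSCs.

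Members marked by H3K4me3 in both replicates numbered 0 at 2 RPKM in each cell type. Scaled to reads in calls they numbered 31, 27 and 72, within 500 bp 19 in MEFs, and by the mean of replicates 22 and 22 in MEFs and pre-iPSCs. With 1 library of a cell type left out only 1 replicate has to pass, and 14 to 34, 20 to 25 and 52 to 56 members did. These are counts of single libraries, larger by construction and no check of the rule of both replicates. For H3K27me3 the members marked in both replicates numbered 0 at 2 RPKM, 69, 72 and 53 scaled to reads in calls, and 15 within 500 bp in iPSCs. By the mean of replicates there were 32, 27 and 20. The counts of single libraries, which are again no check of the rule, were 38 to 53, 40 to 46 and 26 to 34.

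The difference in H3K4me3 share between members and others was -52.7 to -47.2 points leaving out 1 library, and that between HCG and LCG members 8.89 to 11.6, and 0.185 at 2 RPKM. The difference in H3K27me3 share between members and others was 2.60 scaled to reads in calls, 1.80 within 500 bp, 0.647 with calls of at least 2 reads, 0.470 to 0.763 leaving out 1 library, and reversed to -0.0185 at 2 RPKM. That between HCG and LCG members was 0 at 2 RPKM, 3.08 with the stricter CpG rule and 3.70 to 4.61 leaving out 1 library. With 5 libraries no exact p can go below 0.0625.

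The difference in median H3 was -0.0271 to 0.0718 RPKM leaving out 1 library, reversed in 4 of 6 cases, and 0.119 without replicate 1 of pre-iPSCs and of iPSCs. That in the H3 ratio at the TSS was -0.119 to 0.176, reversed without replicate 1 of pre-iPSCs, and reversed to -0.206 without both. Leaving out this pair was chosen after the data were seen, and since the pair is the one with the opposite order, the values without it are no independent test. With 1.5-fold in place of 2-fold for H3K9me3, 53 and 70, 78 and 48, and 73 and 48 members were higher and lower. Among 22 log2 changes of named members, 67 of 243 values under alternatives were no longer past the threshold and 0 were reversed. The cause of these changes was not tested.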

Other observations

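The 7 histone genes among the members were looked at after their values were seen. The windows of 6 of the 7 meet that of a gene with FPKM above 0. Hist2h2ab had 1.46 and 1.31 RPKM of H3K4me3 in MEFs, then 0.828 and 0.910 in pre-iPSCs, and 0.869 and 0.559 for iPSCs. Hist2h3b had 1.15 and 0.637, 0.460 and 0.715, and 0.497 and 0.428 RPKM, while its H3K27me3 was at most 0.0563. Hist2h2aa1 and Hist2h2aa2, near-identical copies, had 0.407 and 0.414 and 0.542 and 0.414 RPKM of H3K4me3 in MEFs with at most 0.0614 RPKM of H3 there. Their H3K4me3 lies above their H3K27me3 in both libraries of MEFs. Hist1h2aa differed, with 0.271 and 0.414 RPKM of H3K4me3 in MEFs below its H3K27me3 of 0.576 and 0.424, and its H3K4me3 rose to 0.652 and 0.724 RPKM in iPSCs (log2 change 1.32, SE 0.42, edgeR adjusted p = 0.0309). Hist1h1t had 0.305 and 0.828 RPKM of H3K4me3 and 0.303 and 0.185 of H3K27me3 in MEFs, and Hist1h2ad 0.881 and 0.255 RPKM of H3K4me3 and at most 0.0865 of H3K27me3 in any library. Reads of near-identical copies cannot be assigned with certainty to one of them.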
